A study of Macaca mulatta with 12 samples.

Results

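Aminoacyl-tRNA synthetases join each amino acid to its matching transfer RNA, the step that supplies charged tRNA to the ribosome. One set of enzymes serves the cytosol and another, encoded by separate nuclear genes, serves the translation of mitochondrial genes, while GARS and KARS each encode both the cytosolic and the mitochondrial enzyme. Several cytosolic enzymes are held together in the multisynthetase complex. Many cytosolic synthetase genes are known targets of ATF4, the transcription factor that responds to amino acid shortage and to stress of the endoplasmic reticulum, and WARS is known to be induced by interferon-gamma.

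The 36 synthetase genes described here were taken by name from a table of 32386 genes, by a rule that holds no measured value but was written with earlier results of these data known. They comprise 20 cytosolic genes (AARS, CARS, DARS, EPRS, FARSA, FARSB, GARS, HARS, IARS, KARS, LARS, MARS, NARS, QARS, RARS, SARS, TARS, VARS, WARS and YARS) and 16 mitochondrial genes, whose names end in 2. Each of the 36 was found and passed the filter on low counts, so none was set aside. The row of 8 members carries the symbol, 27 were named through a name table, and WARS was named by the authors' deposited tables. Most cytosolic names carry a trailing 1 in these sources (IARS1, GARS1), which is left off here. Protein, promoter and transcript sequences were not used here.

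RNA was measured in macrophages of rhesus macaques (Macaca mulatta), sorted from blood by the surface proteins CD14 and CD163 and the lack of CD16. All groups shared 1 history: CD34+ cells were mobilized, edited with CRISPR/Cas9 and returned to the same animal, a model of TET2-mutant hematopoiesis per the title. The labels do not give the share of sorted cells that carry an edit. Sorting was done 4.5 months (Early) or 19 months (Late) after transplant, and wells of 250000 cells were kept for 8 h with no stimulus (CTL) or with interferon-gamma at 20 ng/ml plus LPS, a bacterial lipopolysaccharide, at 100 ng/ml (ACT). The ACT wells are labelled with LPS only in their treatment field, and the protocol names both agents. The 4 groups, Early CTL, Early ACT, Late CTL and Late ACT, had 3 libraries each. The labels leave unsaid whether these were different animals or different wells. The p-values therefore speak to how far these libraries scatter, perhaps for technical reasons alone, and any batch that goes with the sampling time cannot be told apart from time.

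Library totals ran from 3910680 to 12972505 counts. Levels below are CPM, counts relative to library size, scaled with the same normalisation factors as the tests (scaled CPM), and they are compared within a gene, not between genes, because no transcript lengths were used. Early ACT 1, the library with the fewest counts of its group (4602109), stood apart from Early ACT 2 and 3 on the second principal component (-61.46 against 1.49 and 1.79). Several results are also given without it, though not every result on which it may weigh. Summed levels of the 8 listed macrophage markers were 8950 to 10030 scaled CPM in early and 5445 to 6409 in late libraries, and the part of this in the differences between times was not tested. Lists for T cells (5 of 7 genes found), B cells (5 of 5), NK cells (4 of 5) and platelets or red cells (6 of 8) each summed to at most 14.1 scaled CPM in any library, and HBA1 was at 0 throughout. The neutrophil list (5 of 7 found) summed to 518.3 to 609.9 early and 257.4 to 341.5 late, almost wholly from CSF3R, which macrophages also express. A list for CD16 monocytes (3 of 5 found, FCGR3A not among them) summed to 676.2 to 808.2 early and 569.4 to 644.9 late. That sum came almost wholly from LYN, so it rests on 1 gene and does not show that CD16 monocytes were present. The dendritic cell list (5 of 6 found) summed to 61.94 to 83.14 early and 56.36 to 63.44 late, so these 2 lists were not near 0.

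Counts fell mostly on the cytosolic synthetases, with no correction for transcript length. The 20 cytosolic genes summed to 1933 ± 58.3 scaled CPM in Early CTL, 2913 ± 39.0 in Early ACT, 2484 ± 34.1 in Late CTL and 2682 ± 19.1 in Late ACT (SD, n = 3 each). The 16 mitochondrial genes summed to 144.2 ± 4.25, 145.1 ± 11.2, 169.0 ± 14.4 and 172.6 ± 7.17 in the same order. In scaled CPM the cytosolic sums of the 4 groups did not overlap, with Early CTL lowest and Early ACT highest. The mitochondrial sums of the early groups overlapped each other and lay below those of the late groups. This order depended on the scaling factors. In plain CPM, Early CTL was still lowest, but the cytosolic sum was highest in Late ACT (2631 to 2695, against 2595 to 2628 in Early ACT). Plain mitochondrial sums were 120.3 to 139.2 in Early ACT, under the 150.5 to 162.1 of Early CTL. Late CTL 2 (160.1) lay within that Early CTL range. Of the mitochondrial genes, 12 had a mean under 10 scaled CPM, and EARS2 reached as few as 1 count in a library. In these bulk samples, fewer cells of a type and less RNA per cell cannot be told apart.

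**Figure D1:**
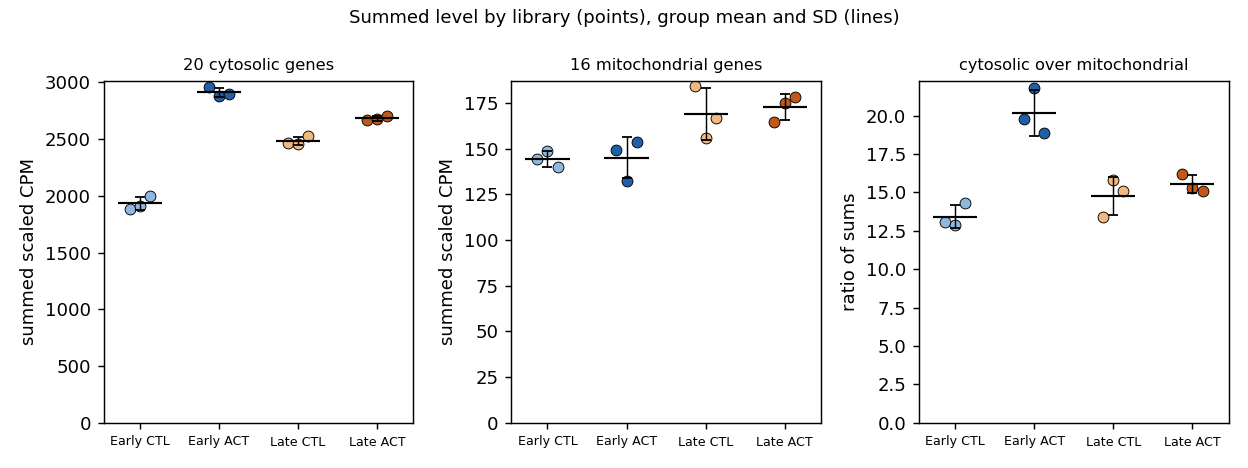
Summed level in scaled CPM of the 20 cytosolic genes (left) and the 16 mitochondrial genes (middle), and the ratio of the sums (right), by group. Points are libraries, lines are the group mean and SD (n = 3). With this scaling the cytosolic sum is highest in Early ACT (2913) and lowest in Early CTL (1933). The mitochondrial sums stay between 132.5 and 184.4 in every library.

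Stimulation of early macrophages raised most of the abundant cytosolic synthetases. Under the edgeR test, 12 of the 20 cytosolic genes rose (AARS, CARS, EPRS, GARS, IARS, LARS, MARS, NARS, SARS, TARS, WARS and YARS) and 0 fell, where 4.57 percent of all 11826 tested genes rose and 2.66 percent fell, 7.23 percent together (adjusted p under 0.05). The median log2 fold change of the 20 was 0.61, against -0.00 over all tested genes. Of the 16 mitochondrial genes, 1 rose (FARS2) and 0 fell, near the share of all genes, with a median of -0.13. The 2 classes also differ in read level, with 12 mitochondrial genes under 10 scaled CPM. Of all tested genes from 1 to 10 scaled CPM, 1.2 percent rose and 1.75 percent fell, against 15 percent and 2.07 percent at 100 or more. The part of read level in the difference between the classes was not tested. The lowest fold change among the called cytosolic genes was 0.40 (WARS) and the highest among the others 0.15 (QARS), so no cytosolic gene lay between.

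IARS, which charges tRNA with isoleucine, had the largest rise among the cytosolic enzymes. Its level was 41.8, 51.2 and 40.4 scaled CPM in Early CTL and 86.9, 100.6 and 101.5 in Early ACT. The groups were well apart, and the rise was 2.17-fold (log2 fold change 1.12 ± 0.14 SE, adjusted p = 2.499e-06).

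The alanine enzyme AARS stood at 180.7, 180.2 and 183.5 scaled CPM before and 406.8, 301.4 and 300.4 after stimulation. Early ACT 1 was the highest of its group, and the lowest ACT value still lay well over the CTL values. The log2 fold change was 0.89 ± 0.12 (adjusted p = 1.402e-05), and 0.73 without Early ACT 1 (adjusted p = 3.095e-10). The methionine enzyme MARS had the same spread, with 194.3, 200.2 and 206.4 in Early CTL and 405.1, 303.3 and 316.6 in Early ACT. It rose by 0.77 ± 0.12 on the log2 scale (adjusted p = 0.0001047), again with no overlap.

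GARS, the glycine enzyme of both compartments, went from 88.7, 100.3 and 102.4 scaled CPM to 160.7, 177.1 and 177.6. For the tyrosine enzyme YARS the values were 138.9, 138.7 and 142.0 in Early CTL and 259.3, 240.3 and 230.3 in Early ACT. SARS, which charges serine tRNA, read 141.4, 136.7 and 152.7 and then 266.2, 217.7 and 219.8. In each of these genes every ACT library lay above every CTL library. Their log2 fold changes were 0.82 ± 0.11 for GARS (adjusted p = 1.818e-05), 0.80 ± 0.11 for YARS (2.89e-05) and 0.70 ± 0.12 for SARS (0.0001885). KARS, the lysine enzyme and the other gene that serves both compartments, did not pass the test. It was at 32.1, 31.7 and 34.9 scaled CPM in Early CTL and at 19.3, 29.8 and 30.6 in Early ACT, each ACT value under the CTL values and Early ACT 1 lowest, with a log2 fold change of -0.28 ± 0.17 (adjusted p = 0.3624), or -0.12 without that library.

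**Figure D2:**
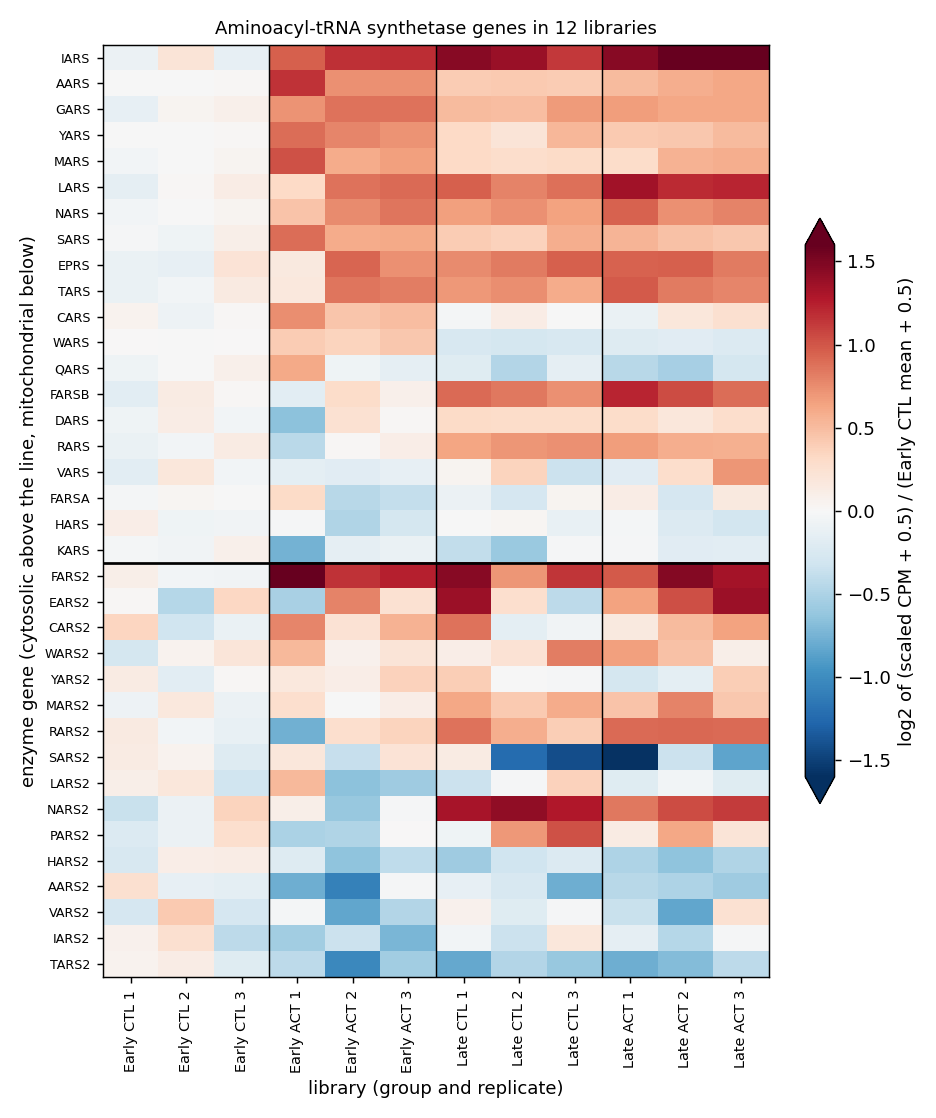
Level of each synthetase gene (rows, cytosolic above the black line) in each of the 12 libraries (columns), as log2 of its scaled CPM + 0.5 over the Early CTL mean + 0.5. Colours end at 1.6 in either direction. The upper rows turn red in Early ACT, and most of them stay red, less deeply in many rows, in the late groups. In those groups CARS is near its Early CTL mean and WARS under it. IARS reaches the strongest red in Late ACT, while most mitochondrial rows show mixed colours.

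Among the other genes that rose, NARS (asparagine, 0.71 ± 0.12), TARS (threonine, 0.66 ± 0.14) and CARS (cysteine, 0.56 ± 0.12) had adjusted p-values of 0.000265, 0.003525 and 0.003667 for their log2 fold changes. LARS (leucine) rose by 0.75 ± 0.15 (adjusted p = 0.001718) and EPRS, a single protein that charges both glutamate and proline tRNA, by 0.66 ± 0.15 (adjusted p = 0.005253). EPRS was the called cytosolic gene whose groups overlapped, with 83.1, 82.2 and 104.2 scaled CPM in Early CTL and 100.5, 172.5 and 150.1 in Early ACT, where Early ACT 1 was low. Groups without overlap, higher after stimulation, were found for 11 cytosolic and 1 mitochondrial gene, against 12.6 percent of all tested genes, and lower for 1 of each class, against 13 percent. The EPRS call was lost without Early CTL 2 or Early ACT 2 and in 2 further alternatives (adjusted p up to 0.07684). The members of the multisynthetase complex were split. IARS, LARS, MARS and EPRS rose, whereas DARS, KARS, QARS and RARS did not pass the test, with log2 fold changes from -0.28 to 0.15. Of the 12 enzymes outside the complex 8 rose, and FARSA, FARSB, HARS and VARS did not pass. FARSA and FARSB encode the subunits of the phenylalanine enzyme.

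The calls were also counted by mean read level, which is not corrected for transcript length. All 10 cytosolic genes with a mean of 100 scaled CPM or more rose, as did 2 of the 10 below that level (IARS and LARS), while 15 percent of all tested genes at 100 scaled CPM or more rose. QARS, the glutamine enzyme, shows how far Early ACT 1 weighed on single genes: it was at 52.8, 55.4 and 58.6 scaled CPM in Early CTL and at 84.9, 53.2 and 50.3 in Early ACT. Early ACT 1 alone was high, and the gene did not pass (log2 fold change 0.15 ± 0.16, adjusted p = 0.6511). Without Early ACT 1, 13 cytosolic genes were called, 12 of them higher. Factors set to library totals alone lowered the median log2 fold change of all genes to -0.28 and that of the cytosolic genes to 0.33, the same distance apart, and left 8 cytosolic genes higher, 2 lower and, of the mitochondrial genes, 1 higher and 4 lower. Without Early ACT 1 or Early ACT 3 the mitochondrial genes gave 1 rise and 1 fall.

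WARS, the tryptophan enzyme, was at 316.5, 313.9 and 317.3 scaled CPM in Early CTL and at 419.2, 404.3 and 427.0 in Early ACT. The groups were narrow and did not overlap, and the rise was 1.32-fold (log2 fold change 0.40 ± 0.10, adjusted p = 0.01364). This call was lost in 7 of 19 alternatives, with adjusted p up to 0.399, and removal of any Early CTL library or of Early ACT 3 was enough. The row bears the name WARS in the authors' deposited table and the name of the carrier gene SLC25A47 in the name table. RefSeq's macaque assembly T2T-MMU8v2.0 lists SLC25A47 and WARS1 as neighbours, so that reads of both genes may have been counted together.

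In late macrophages the same stimulation gave no call among the synthetases. By edgeR 0 of 20 cytosolic and 0 of 16 mitochondrial genes passed, as did 0 percent of all tested genes, and DESeq2 called 0 of either class and 15 genes in all. At an unadjusted p under 0.05 there were 527 genes, 2 of them cytosolic synthetases (IARS at 0.31 ± 0.13 and LARS at 0.38 ± 0.15 on the log2 scale) and 0 mitochondrial. Cytosolic fold changes ran from -0.15 to 0.38 with a median of 0.11, where all genes had a median of 0.00. IARS was at 123.1, 116.5 and 97.7 scaled CPM in Late CTL and at 122.4, 149.9 and 146.4 in Late ACT, and these groups overlapped. LARS read 54.7, 48.9 and 51.8 and then 71.5, 64.8 and 65.6, with no overlap. Groups were apart, with ACT higher, for 4 cytosolic genes (AARS, LARS, TARS and WARS), against 5.44 percent of all tested genes, and with ACT lower for 0, against 5.57 percent.

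The responses at the 2 times were then compared directly, as the late minus the early log2 fold change (interaction). It was negative and past the threshold for 5 of the 20 cytosolic genes (GARS, YARS, AARS, IARS and SARS) and for 1 of the 16 mitochondrial genes (FARS2), and positive for 0, where 1.23 percent of all tested genes were called lower and 0.186 percent higher, 1.41 percent together. Of all tested genes at 100 scaled CPM or more, where 4 of the 5 cytosolic calls lie, 5.17 percent were called lower. The differences were -0.75 ± 0.16 for GARS (adjusted p = 0.01029), -0.70 ± 0.16 for YARS (0.02049), -0.73 ± 0.17 for AARS (0.02066), -0.81 ± 0.19 for IARS (0.02453) and -0.68 ± 0.16 for SARS (0.03158). A further 6 cytosolic genes (CARS, EPRS, MARS, NARS, TARS and WARS) were negative at an unadjusted p under 0.05, making 11 of 20, against 1280 of 11826 genes in all. The median interaction was -0.42 for the cytosolic, 0.04 for the mitochondrial and -0.01 for all tested genes.

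GARS illustrates the pattern. Its late values were 138.0, 137.5 and 156.6 scaled CPM without and 154.9, 149.0 and 150.0 with stimulation, so both late groups lay between Early CTL and Early ACT. For YARS the late values were 174.5, 160.9 and 201.9 without and 187.5, 189.2 and 198.4 with stimulation, also between the early groups. AARS read 241.4, 242.7 and 241.6 in Late CTL and 257.2, 271.1 and 278.1 in Late ACT, narrow groups that again lay between the early ones. SARS was at 191.2, 185.4 and 215.8 in Late CTL and 209.6, 198.3 and 194.5 in Late ACT, under each Early ACT value. IARS differed from these, since both of its late groups reached or passed the Early ACT level. In plain CPM, YARS still lay between the early groups, but late values of GARS, AARS and SARS reached the Early ACT range. GARS was then at 159.2 in Late CTL 3 and 141 in Early ACT 1, and AARS at 277.3 in Late ACT 3 and 272.2 in Early ACT 3. SARS was at 219.3 in Late CTL 3 and 197.6 in Early ACT 2.

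The interaction calls depended on single libraries. The number of cytosolic genes called was 0 without Early CTL 1, 2 and 1 without Early CTL 2 and 3, 9 without Early ACT 1, 4 without Early ACT 2 or 3, 3, 2 and 3 without Late CTL 1, 2 and 3, and 1, 2 and 1 without Late ACT 1, 2 and 3. FARS2 was lost on removal of any Early CTL library, Late CTL 1 or 3 or Late ACT 1 or 3, and with a replicate block. GARS kept its call in 16 of 18 alternatives, and the adjusted p of these genes over the alternatives reached at most 0.158 (SARS). None of these 6 genes changed direction in any alternative. Library totals alone moved the interaction median of all genes to 0.23 and gave 0 synthetase calls.

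**Figure D3:**
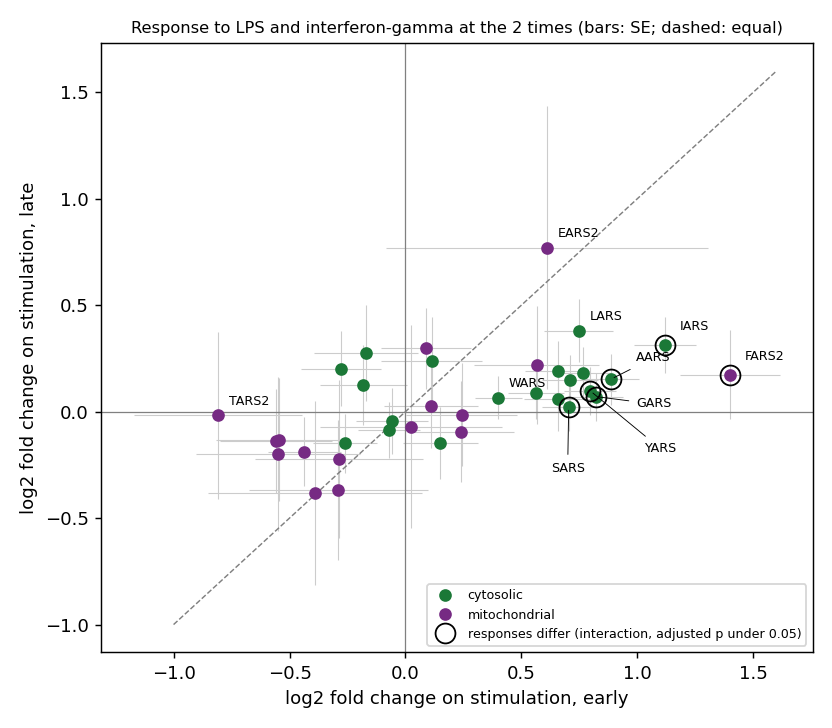
Log2 fold change on stimulation at 4.5 months (horizontal) against 19 months (vertical) for each synthetase gene, with standard errors as bars. Ringed genes differ between the times in the interaction test. Cytosolic genes that rose early spread along the horizontal axis up to 1.12 (IARS), while their late values lie between 0.02 and 0.38.

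The early and late responses share no library. They had the same sign in 16 of 20 cytosolic and 13 of 16 mitochondrial genes, where 56.1 percent of all tested genes did. The early value was the further from 0 in 17 of 20 cytosolic and 12 of 16 mitochondrial genes, and in 66.3 percent of all tested genes.

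Before any stimulus, many cytosolic synthetases were higher at 19 than at 4.5 months. In the edgeR test 12 of 20 cytosolic genes were higher late (AARS, EPRS, FARSB, GARS, IARS, LARS, MARS, NARS, RARS, SARS, TARS and YARS) and 1 was lower (WARS), where 20.9 percent of all tested genes were called higher and 19.8 percent lower, 40.7 percent together. The median log2 fold change was 0.39 for the cytosolic genes, 0.20 for the mitochondrial genes and 0.02 for all tested genes. The mitochondrial count, 4 of 16 higher (FARS2, MARS2, NARS2 and RARS2) and 0 lower, was close to the share of all genes, and it was 2 without Early CTL 3. This comparison uses the same Early CTL libraries as the early stimulation, so the values of both are set side by side below without an overlap. Thinned to an equal 3910680 counts, early libraries detected 13624 to 13965 genes and late libraries 17470 to 18621, with no overlap, and the part of this in the differences between times was not tested. Of all tested genes under 1 scaled CPM, 65.4 percent were called higher late without stimulus, of those from 1 to 10, where FARSB and NARS2 lie, 18.8 percent, and of those at 100 or more 23.1 percent.

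IARS again had the largest cytosolic difference, 2.52-fold (log2 fold change 1.33 ± 0.14, adjusted p = 3.278e-08), from the Early CTL and Late CTL values given above, and these groups did not overlap. LARS was at 25.3, 28.3 and 30.3 scaled CPM in Early CTL, 34.9, 51.6 and 52.6 in Early ACT and, as above, 48.9 to 54.7 in Late CTL. The late unstimulated cells were thus near the 2 higher Early ACT libraries, and the late difference was 0.88 ± 0.15 (adjusted p = 5.512e-05). EPRS read 152.6, 159.7 and 174.4 in Late CTL, each above its Early CTL values, a log2 fold change of 0.85 ± 0.15 (adjusted p = 7.493e-05). NARS was at 90.6, 92.8 and 96.1 in Early CTL and at 147.0, 155.5 and 145.2 in Late CTL. The gap was far wider than either group (0.68 ± 0.12, adjusted p = 8.41e-05).

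RARS, the arginine enzyme, differed with time and not detectably with stimulation. Its level was 60.5, 63.3 and 71.3 scaled CPM in Early CTL, 48.0, 65.6 and 70.1 in Early ACT, 101.4, 106.3 and 108.4 in Late CTL and 103.8, 97.6 and 97.0 in Late ACT. Each late library lay above each early one. The late difference was 0.69 ± 0.13 without stimulus (adjusted p = 0.0001868) and 0.68 ± 0.13 with it (adjusted p = 0.000269), while the responses to stimulation were -0.07 ± 0.13 early and -0.08 ± 0.13 late. FARSB had the same order at lower counts. It was at 5.70, 7.17 and 6.57 in Early CTL, 5.70, 8.07 and 6.91 in Early ACT, 12.6, 12.1 and 11.1 in Late CTL and 15.8, 13.8 and 12.4 in Late ACT. All late values lay above all early ones, with log2 differences of 0.86 ± 0.22 without and 0.99 ± 0.21 with stimulation (adjusted p = 0.002509 and 0.0006909). FARSA, whose product pairs with that of FARSB in 1 enzyme, did not pass in either comparison (-0.11 ± 0.19 and 0.20 ± 0.19).

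GARS was higher late by 0.57 ± 0.11 (adjusted p = 0.0003211) without stimulation. The other 5 genes called higher in unstimulated late cells were TARS (0.68 ± 0.14), SARS (0.46 ± 0.12), AARS (0.41 ± 0.12), YARS (0.36 ± 0.11) and MARS (0.31 ± 0.12), with adjusted p from 0.0004685 to 0.04613. MARS lost its call in 14 of 19 alternatives, among them leaving out any 1 of the libraries but Early ACT 1, with adjusted p up to 0.1525. YARS was lost in 5 (adjusted p up to 0.09564), 3 of which removed Early CTL 1, Early CTL 2 or Late CTL 3. KARS was at 24.97, 21.6 and 32.5 scaled CPM in Late CTL, overlapping its Early CTL values (-0.32 ± 0.18, adjusted p = 0.1485), and was called lower without Early ACT 1 or without Late CTL 3. Groups did not overlap, late higher, for 13 cytosolic and 4 mitochondrial genes, against 26.7 percent of all tested genes, and late lower for 2 and 1, against 26.1 percent.

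**Figure D4:**
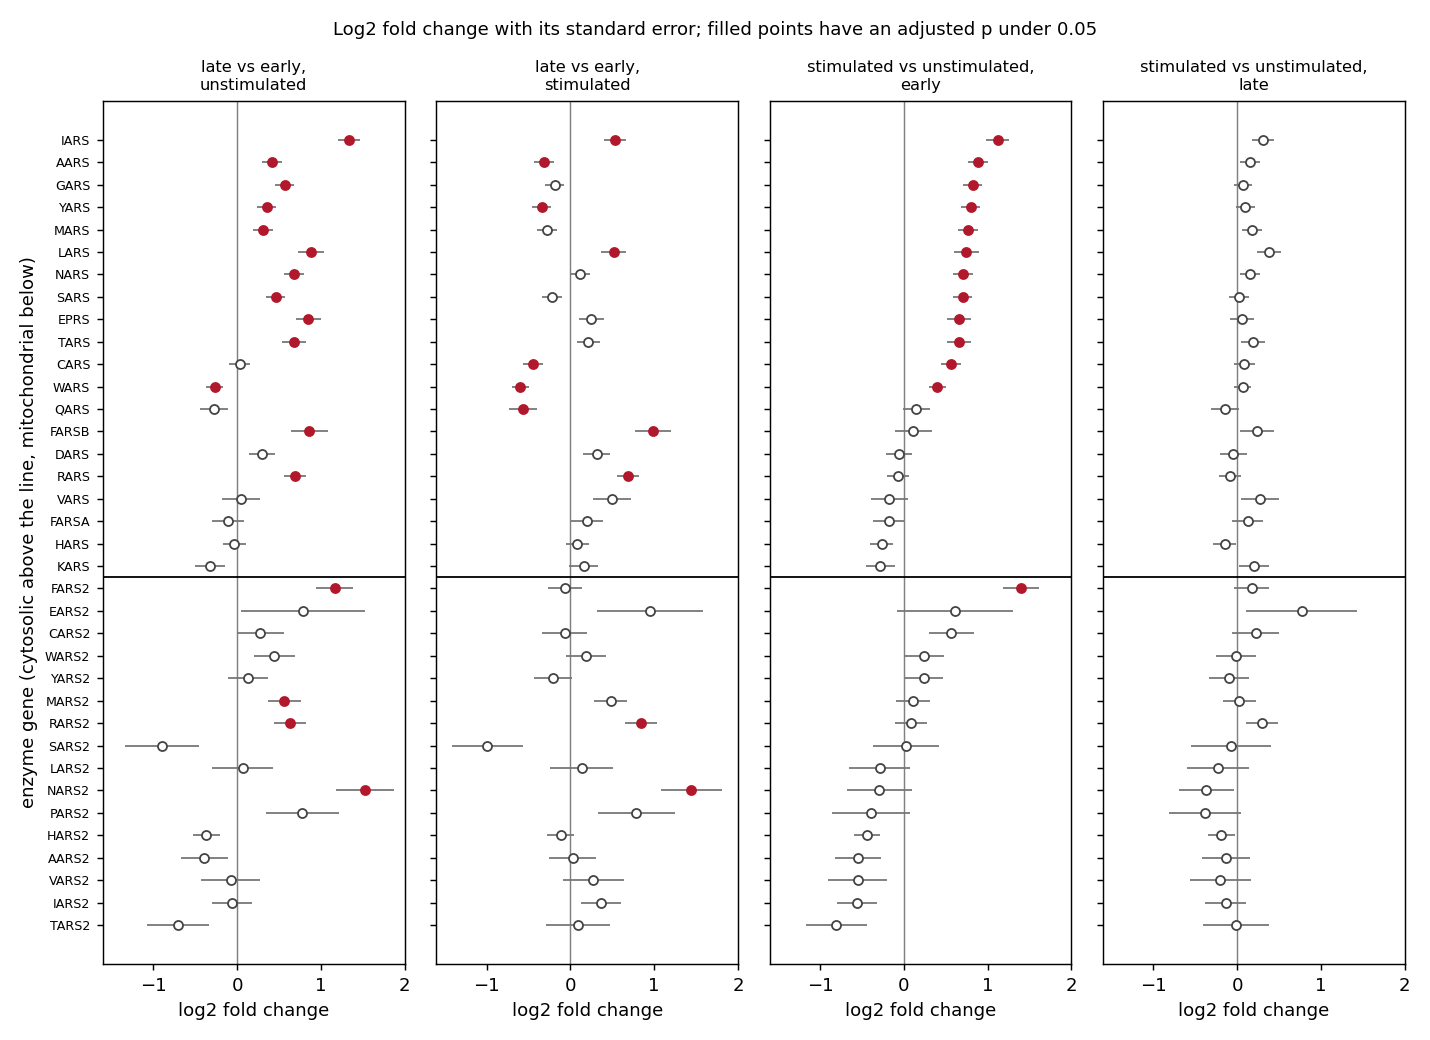
Log2 fold change and standard error of each synthetase gene (rows, cytosolic above the line) in 4 comparisons (panels). Filled points have an adjusted p under 0.05. Cytosolic points lie to the right in the panels of late against early without stimulus and of early stimulation (12 filled to the right in each), split to both sides between stimulated groups (4 right, 5 left), and carry no filled point for late stimulation.

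Between the stimulated groups the cytosolic enzymes divided. Late ACT was higher than Early ACT for 4 genes (FARSB, IARS, LARS and RARS) and lower for 5 (AARS, CARS, QARS, WARS and YARS), while 19.1 percent of all tested genes were called higher and 19.7 percent lower, 38.8 percent together, so these counts were near the background. The median was 0.14 for the cytosolic, 0.16 for the mitochondrial and 0.05 for all tested genes. The 4 higher genes were also higher late without stimulus, in other libraries. AARS and YARS changed sides, higher late without stimulus and lower late with it. Of the mitochondrial genes 2 were higher (NARS2 and RARS2) and 0 lower. Groups did not overlap, late higher, for 4 cytosolic and 4 mitochondrial genes, against 26 percent of all tested genes, and late lower for 8 and 0, against 24.5 percent.

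IARS was higher in Late ACT by 0.53 ± 0.13 (adjusted p = 0.002574) and LARS by 0.52 ± 0.15 (adjusted p = 0.00673), with no overlap in either. CARS read 138.2, 126.3 and 135.0 scaled CPM in Early CTL, 222.6, 180.8 and 187.9 in Early ACT, 130.1, 145.0 and 132.6 in Late CTL and 123.6, 150.8 and 158.7 in Late ACT. Only Early ACT stood out, above each of the other 9 libraries, and the late stimulated level was lower by 0.45 ± 0.12 on the log2 scale (log2 fold change -0.45, adjusted p = 0.005425). QARS had 40.9, 38.4 and 45.5 in Late ACT, under each Early ACT value, a log2 fold change of -0.57 ± 0.16 (adjusted p = 0.008166). Without Early ACT 1 this became -0.33 (adjusted p = 0.02827). The AARS difference, -0.32 ± 0.12 (adjusted p = 0.03488), was lost in 9 of 19 alternatives, among them without Early ACT 1 (-0.18, adjusted p = 0.06728) and without Late ACT 1, 2 or 3. For YARS (-0.34 ± 0.11, adjusted p = 0.01828) the call was lost in 5, among them without Late ACT 1 or 2. With upper-quartile factors, which moved the median of all genes to 0.15, 6 cytosolic genes were higher and 3 lower.

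WARS was the synthetase called lower late in both states. It stood at 265.1, 259.5 and 264.2 scaled CPM in Late CTL and at 274.7, 278.7 and 272.4 in Late ACT, each under its lowest early value of 313.9. The late level was 1.51-fold lower with stimulation (log2 fold change -0.60 ± 0.10, adjusted p = 6.271e-05) and also lower without (-0.26 ± 0.10, adjusted p = 0.04016). The unstimulated call was lost in 8 of 19 alternatives (adjusted p up to 0.2938), 5 of which removed an Early CTL library, Late CTL 1 or Late CTL 2, and the stimulated call in 0. Of 9 tested genes of tryptophan use and the interferon-gamma response, 5 were lower and 1 higher late without stimulus, and 6 were lower and 1 higher with it, where 19.8 and 19.7 percent of all tested genes were lower. CXCL10, a chemokine that interferon-gamma induces, was lower late by log2 fold changes of -2.63 ± 0.26 without and -2.32 ± 0.26 with stimulus (adjusted p = 2.353e-08 and 2.069e-07). IDO1, which degrades tryptophan, was the member of this list that rose on early stimulation (0.55 ± 0.12, adjusted p = 0.002815), while CXCL10 did not pass there (-0.55 ± 0.22, adjusted p = 0.136). That list gave 3 calls on early stimulation without Early ACT 1, and 4, each lower, with library totals alone.

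**Figure D5:**
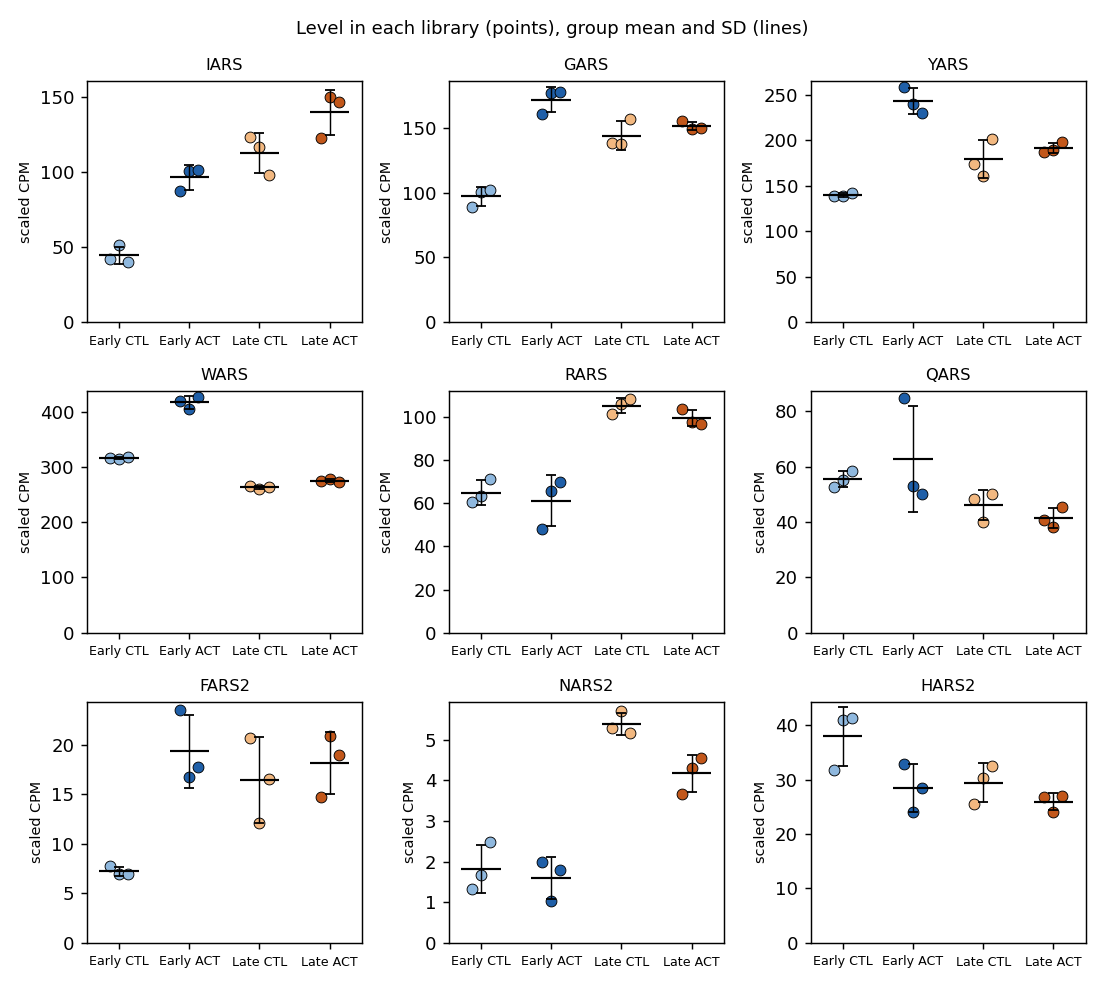
Scaled CPM of 6 cytosolic (IARS, GARS, YARS, WARS, RARS, QARS) and 3 mitochondrial genes (FARS2, NARS2, HARS2) in each library (points), with the group mean and SD (n = 3). RARS and NARS2 divide by time, GARS and YARS peak in Early ACT, WARS is lowest in the late groups, and in QARS the library Early ACT 1 (84.9) stands above Early ACT 2 and 3 (53.2 and 50.3).

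FARS2, the mitochondrial phenylalanine enzyme, was the mitochondrial gene that rose on early stimulation. It was at 7.74, 6.98 and 6.91 scaled CPM in Early CTL, 23.5, 16.7 and 17.8 in Early ACT, 20.7, 12.1 and 16.5 in Late CTL and 14.8, 20.9 and 18.9 in Late ACT. Early CTL lay under the other groups, which overlapped each other. The rise was 2.64-fold (log2 fold change 1.40 ± 0.22, adjusted p = 7.759e-05), the late difference without stimulus 1.17 ± 0.22 (adjusted p = 0.0001779), and the interaction -1.23 ± 0.30 (adjusted p = 0.03405).

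NARS2 and RARS2, for asparagine and arginine in mitochondria, were higher late in both states. NARS2 was at 1.32, 1.68 and 2.47 scaled CPM in Early CTL, 1.98, 1.02 and 1.79 in Early ACT, 5.30, 5.70 and 5.16 in Late CTL and 3.65, 4.31 and 4.54 in Late ACT, from as few as 8 counts in a library. No early library reached a late one, and the log2 differences were 1.52 ± 0.35 (adjusted p = 0.001112) and 1.44 ± 0.36 (adjusted p = 0.002965). RARS2 read 29.5, 25.8 and 24.4 in Early CTL, 15.4, 32.01 and 34.1 in Early ACT, 48.9, 40.2 and 34.9 in Late CTL and 50.3, 50.8 and 50.3 in Late ACT. Late values lay above early ones, Early ACT 1 being the lowest, with differences of 0.63 ± 0.19 (adjusted p = 0.0111) and 0.84 ± 0.19 (adjusted p = 0.001179). The first was lost without Early CTL 3 or Late CTL 1 (adjusted p up to 0.07259), and the second was 0.59 without Early ACT 1. MARS2 had 8.62, 10.3 and 8.53 in Early CTL and 14.4, 12.5 and 14.1 in Late CTL. These did not overlap (0.57 ± 0.20, adjusted p = 0.02681), but the call was lost in 6 of 19 alternatives (adjusted p up to 0.1016), 4 of which removed Early CTL 1 or 3 or Late CTL 1 or 3.

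The other 12 mitochondrial genes (AARS2, CARS2, EARS2, HARS2, IARS2, LARS2, PARS2, SARS2, TARS2, VARS2, WARS2 and YARS2) were called in none of the 5 comparisons, as were the cytosolic DARS, FARSA, HARS, KARS and VARS. Standard errors of the mitochondrial log2 fold changes on early stimulation ran up to 0.69 (EARS2), against at most 0.22 among the cytosolic genes. TARS2 had the lowest early response (-0.81 ± 0.36, adjusted p = 0.197), with 3.65, 3.82 and 2.99 scaled CPM in Early CTL and 2.48, 1.44 and 2.22 in Early ACT. Its groups did not overlap. HARS2, with a smaller standard error, gave -0.44 ± 0.16 (adjusted p = 0.09677).

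In 15 pairs of a cytosolic and a mitochondrial gene for the same amino acid, the cytosolic gene had the more positive early response in 13. EPRS stood in 2 pairs (with EARS2 and PARS2). Phenylalanine, whose cytosolic enzyme has 2 genes, was left out of the pairs, and it went the other way. FARS2 rose early by 1.40 (interaction -1.23), while FARSA and FARSB did not pass. Their means were 24.0 and 6.48 scaled CPM in Early CTL and 21.9 and 6.89 in Early ACT. Read level also differs within the pairs, and its part in these counts was not tested. Within the 15 pairs, the exceptions were CARS with CARS2 (0.56 and 0.57) and RARS with RARS2 (-0.07 and 0.09). IARS and IARS2 differed in direction, at 1.12 ± 0.14 and -0.56 ± 0.24, as did AARS (0.89 ± 0.12) and AARS2 (-0.55 ± 0.27), though neither mitochondrial value passed the test. The cytosolic gene was the more positive in 11 of 15 pairs for late against early without stimulus, 6 of 15 with stimulus and 12 of 15 for late stimulation, and the more negative in 14 of 15 for the interaction. The interaction subtracts the early response, so its count is not separate from the 13 of 15 above. The ratio of the cytosolic to the mitochondrial sum, which no scaling factor changes, was 13.1, 12.9 and 14.3 in Early CTL, 19.8, 21.8 and 18.9 in Early ACT, 13.4, 15.8 and 15.1 in Late CTL and 16.2, 15.3 and 15.1 in Late ACT. Early ACT lay above each of the other groups, which reached at most 16.2.

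Genes of the amino acid stress response, many of them known targets of ATF4, were measured in the same libraries. On early stimulation 10 of 18 tested genes of that list rose and 0 fell, with 4.57 percent of all tested genes rising and 2.66 percent falling, and the other 8 did not pass. ASNS, which makes asparagine, rose by 1.52 ± 0.19 on the log2 scale (adjusted p = 3.042e-06), CHAC1, which degrades glutathione, by 1.33 ± 0.13 (3.847e-08) and SESN2, a leucine sensor, by 1.07 ± 0.12 (5.411e-07). On late stimulation 0 of 18 were called (median 0.07), as were 0 percent of all tested genes. The interaction was negative for 6, ASNS, CHAC1, CTH, SESN2, SHMT2 and TRIB3, where 1.23 percent of all tested genes were called lower. It was -1.31 ± 0.26 for ASNS (adjusted p = 0.005039) and -1.20 ± 0.18 for CHAC1 (adjusted p = 0.0001758). Late unstimulated cells had 9 of the 18 higher and 2 lower, and late stimulated cells 1 higher and 7 lower. Among all tested genes 20.9 percent were higher and 19.8 percent lower late without stimulus, and 19.1 and 19.7 percent with it. TRIB3, a pseudokinase that restrains ATF4, was lower late in both states (-0.66 ± 0.14 and -1.45 ± 0.14), unlike ASNS, which was higher late without stimulus (1.56 ± 0.19, adjusted p = 4.964e-07). No row was found under the name ATF4, so that gene itself was not analysed here.

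Of 9 tested amino acid transporters, 4 rose on early stimulation and 0 fell, beside the same shares of all genes (4.57 and 2.66 percent). These were SLC3A2, the shared heavy chain of several transporters (0.99 ± 0.14, adjusted p = 1.717e-05), SLC7A1, which imports arginine and lysine (1.14 ± 0.16, 2.618e-05), SLC1A4 (0.77 ± 0.13, 0.000301) and SLC1A5, a glutamine carrier (0.73 ± 0.13, 0.0004659). Without Early ACT 1 the number was 7. The interaction was negative for SLC3A2 (-0.95 ± 0.19, adjusted p = 0.00559) and SLC1A5 (-0.73 ± 0.18, adjusted p = 0.0429). Of all tested genes 1.23 percent were called lower there, and of those at 100 scaled CPM or more 5.17 percent. In 9 alternatives 1 transporter call was left, 7 of which removed Early CTL 2 or 3, Late CTL 1 or 2 or any Late ACT library. There were 3 calls on removal of Early ACT 1 or 2 or Late CTL 3. SLC7A11, the cystine importer, was higher late in both states (1.24 ± 0.12 and 1.08 ± 0.12) and not called on early stimulation (0.36 ± 0.12, adjusted p = 0.06936). Among 8 tested sensors and regulators of eIF2alpha phosphorylation, PPP1R15A, a phosphatase subunit that reverses it, rose on early stimulation (0.66 ± 0.10, adjusted p = 8.663e-05), with an interaction of -0.68 ± 0.14 (adjusted p = 0.01029), which was lost without Early CTL 1 or 2 or Late ACT 1. The kinase gene EIF2AK4, whose product senses uncharged tRNA, did not pass there (0.44 ± 0.21, adjusted p = 0.2293). The early count of this list was 3 without Early ACT 1 and 2 without Late CTL 3.

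Genes for the steps before and after tRNA charging gave few calls on early stimulation, where 4.57 percent of all tested genes rose and 2.66 percent fell. In the list for tRNA ends, splicing and export, 12 log2 fold changes were negative and 4 positive. The median of that list was -0.25, against 0.22 for the elongation factors and -0.00 for all tested genes. Of 16 tested genes for tRNA ends, splicing and export, 0 rose and 2 fell, RPP14 and RPP38, both subunits of ribonuclease P, by log2 fold changes of -0.90 ± 0.25 and -1.53 ± 0.42. Without Early ACT 1 this list gave 1 rise and 3 falls, without Early CTL 1 or 3 it gave 0 calls, and without Early CTL 2, Early ACT 2 or Early ACT 3 it gave 1. Of 9 elongation factors, which carry charged tRNA to the ribosome or move it there, 0 rose and 1 fell, the mitochondrial TSFM (-0.97 ± 0.26, adjusted p = 0.02152), a call lost on removal of any Early CTL library, Early ACT 2 or Early ACT 3. EEF1A1, the main cytosolic carrier of charged tRNA, was at 0.28 ± 0.12 (adjusted p = 0.1832). The scaffold genes of the multisynthetase complex, AIMP1 and AIMP2, gave -0.18 ± 0.24 and -0.27 ± 0.25, and AIMP2 was higher late with stimulation (0.74 ± 0.25, adjusted p = 0.02108), which was lost without Early ACT 2, Late ACT 1 or Late ACT 3. GATC, a subunit of the enzyme that makes mitochondrial glutamine tRNA in place of a separate synthetase, fell on early stimulation (-0.59 ± 0.18, adjusted p = 0.04502), a call lost with a replicate block and on removal of any library other than Early CTL 2, Early ACT 2 or Late CTL 3. SEPSECS, the last enzyme of selenocysteine tRNA synthesis, was higher late in both states (0.69 ± 0.24 and 0.82 ± 0.24, adjusted p = 0.02337 and 0.007614), the first being lost without Early CTL 3 or Late CTL 1 or 2.

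The authors' deposited tables, which list genes that differ between the times, hold 13 cytosolic genes higher and 1 lower late and 3 mitochondrial genes higher in unstimulated cells. For stimulated cells the authors' deposited table lists 4 cytosolic genes higher and 4 lower, and 2 mitochondrial genes higher. DARS is in the authors' deposited table for unstimulated cells (log2 fold change 0.31 ± 0.13, adjusted p = 0.0441) but did not pass here (0.30 ± 0.16, adjusted p = 0.1359). MARS2 without stimulus and AARS with it passed here and are not in the authors' deposited tables.

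In the authors' deposited tables, on build Mmul_8.0.1, IARS (ENSMMUG00000004628) lies on chromosome 15 from 42410750 to 42487351 and GARS (ENSMMUG00000004719) on chromosome 3 from 77515162 to 77558192. The same tables deposited by the authors place AARS (ENSMMUG00000021653) on chromosome 20 from 54436655 to 54478813, SARS (ENSMMUG00000021837) on chromosome 1 from 110212976 to 110249001 and YARS (ENSMMUG00000019746) on chromosome 1 from 31853226 to 31900779. WARS (ENSMMUG00000013865) is placed by the authors' deposited tables on chromosome 7 from 162659397 to 162708200, and RARS (ENSMMUG00000012516) on chromosome 6 from 166729891 to 166764454. Of the mitochondrial genes, the authors' deposited tables give FARS2 (ENSMMUG00000016352) on chromosome 4 from 5328205 to 5846430, RARS2 (ENSMMUG00000017039) on chromosome 4 from 85553032 to 85702532 and NARS2 (ENSMMUG00000004649) on chromosome 14 from 70639329 to 70780864. Each span covers a whole gene, exons and introns together.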

How the data were processed

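RNA of 12 libraries was sequenced after SMART-Seq v4 cDNA synthesis and Nextera XT library preparation, per the labels' protocols, which do not mark the strand. The deposited table holds raw read counts per gene. Build Mmul_8.0.1 and bcl2fastq are named in the submitters' processing notes, while no source used here names the aligner or the counter. The authors' deposited tables hold log2 fold changes (late over early) with SE, a test score, a mean normalised count (also a score here), and p-values with their adjusted values, under 0.05 only.

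The main test was edgeR's robust quasi-likelihood F test (version 4.0.16, R 4.3.3) on the counts, with TMM factors (0.879 to 1.10), filterByExpr by group and 1 coefficient per group over all 12 libraries. Of 32386 genes, 11826 were tested, and 6017 had no count. The 5 comparisons were late against early in each state, the response to stimulation at each time, and the interaction of both. Benjamini-Hochberg adjustment ran over all tested genes, with a threshold of 0.05. Each SE was taken as the size of the log2 fold change divided by the root of its F value. Scaled CPM divides each count by the library's total over tested genes times its TMM factor, so stimulated early libraries read higher than in plain CPM. Alternatives were DESeq2 1.42.0, other factors, no filter, only the compared groups, a replicate block and leaving out each library. Library totals alone were added after the data were seen. The scripts were tested on simulated data.

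The members and lists were chosen with earlier results of these data known. Values in every library are given, per comparison, for up to 6 cytosolic and 4 mitochondrial genes with the smallest adjusted p past the threshold, and for WARS, GARS and KARS. EPRS in the early stimulation, QARS, TARS2 and CARS outside its comparison were added after their values were seen. Of the other lists, up to 4 genes with the smallest p were to be named. Further list genes, such as TRIB3, SLC7A11, EIF2AK4, EEF1A1, AIMP1 and AIMP2, were named after their values were seen. Reads carry no molecular identifiers.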

Additional observations from a re-analysis of the deposited data

Results flagged for a closer look

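The response to stimulation differed between 4.5 and 19 months for 6 synthetase genes in a test of the difference itself, the edgeR interaction term. Of all tested genes 1.23 percent were called lower and 0.186 percent higher, and of those at 100 scaled CPM or more 5.17 percent lower. The late minus the early log2 fold change was -0.73 for AARS, -0.75 for GARS, -0.81 for IARS, -0.68 for SARS, -0.70 for YARS and -1.23 for FARS2. In each, the early response was positive and past the threshold, and the late one was not called, as was true of all 11826 tested genes. Leaving out 1 library gave 0 to 9 cytosolic calls for the interaction, and library totals alone gave 0. With 3 libraries a group, no single library was tested for standing apart.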

How the results depend on the processing

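Of 47 calls of single synthetase genes, 29 were kept in every alternative, 18 were lost in at least 1 and 0 reversed. With library totals alone, a setting chosen after seeing the data, the early stimulation gave 5 mitochondrial calls in place of 1, and the interaction gave 0 cytosolic and 0 mitochondrial calls in place of 5 and 1. DESeq2 gave 8 cytosolic interaction calls. With a replicate block the interaction gave 0 mitochondrial calls. The causes of these changes were not tested.

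Leaving out 1 library at a time, which also leaves fewer residual degrees of freedom, the cytosolic calls ran from 10 to 16 for late against early without stimulus, 7 to 12 with stimulus, 10 to 13 for early stimulation, 0 to 0 for late stimulation and 0 to 9 for the interaction. The mitochondrial calls ran from 2 to 5, 2 to 3, 1 to 2, 0 to 0 and 0 to 1 in the same order. The interaction was not fitted on only the compared groups, since it uses all of them.

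Other factors moved the split of all called genes. The share called higher was 51.3 percent for late against early without stimulus, 63.3 percent with upper-quartile factors and 64.4 percent with DESeq2. With stimulus it was 49.3 percent, 61.0 with upper-quartile factors and 65.2 with library totals alone. For early stimulation it was 63.3 percent, 11.6 with library totals alone, and for the interaction 13.2 and 61.4 percent. The early stimulation gave 2413 calls with library totals alone and 503 with only the compared groups, in place of 855, and the interaction gave 313 with DESeq2, in place of 167.

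Replicate numbers are shared between groups, but deviations of same-numbered libraries correlated from -0.086 to 0.097 over 18 pairs of libraries and those of other pairs from -0.086 to 0.104, so the numbers were not taken to pair them. With a replicate block, all genes gave 4596, 4354, 727, 0 and 114 calls in the 5 comparisons.

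Depth limits the genes with the fewest counts, such as EARS2, with as few as 1 count in a library and a standard error of 0.69 on early stimulation. RARS2 and HARS2 had standard errors of 0.19 and 0.16.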
